A study of Phaseolus vulgaris with 6 samples.

Results

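Serine carboxypeptidases and subtilases are large groups of plant serine proteases, and their genes were examined here in developing pods of the Phaseolus vulgaris genotypes Albion and Voyager. Members were the genes whose homology annotation, taken from Arabidopsis thaliana, contains serine carboxypeptidase, subtilase or subtilisin. This rule found 88 of the 19598 genes listed, of which 44 were serine carboxypeptidases and 44 were subtilases or subtilisin-like proteases. Pods were taken from 6 greenhouse pots, with 3 pots per genotype. The labels assign a low zinc concentration to Albion and a normal one to Voyager, and state for both that the zinc supply was sufficient. The age in the labels is 20 days after anthesis, and the study's methods give a younger age. A whole pod holds pod wall and developing seeds, so fewer cells of a kind and less RNA per cell cannot be told apart in these values. By the study's account, seeds made up a larger part of the pod weight in Albion than in Voyager, so genotype and tissue makeup cannot be told apart either.

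A serine carboxypeptidase removes the last residue of a protein or peptide with an active-site serine. Some plant members of the serine carboxypeptidase-like (SCPL) family have lost this activity and move acyl groups from glucose esters instead, as SNG2 does when it makes sinapoylcholine in Arabidopsis seeds. Members of family S28, which also contains the human prolylcarboxypeptidase, cut behind a proline. Subtilases cut inside a protein chain, are made as precursors with an inhibitory propeptide, and are mostly secreted to the cell wall. In legumes, subtilases have been linked to seed size and, in germinating soybean, to the breakdown of storage protein.

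The measurement is FPKM, the fragments mapped to a gene divided by its exon length and by the mapped reads, so levels of different genes can be compared. The authors pooled the 3 pots of a genotype into 1 value, and no spread, standard error or test of the genotypes can be computed from these values. Differences were taken as log2(FPKM + 1) in Voyager minus Albion, and a gene was counted as different at 1 or more, which is 2-fold on this scale. Summed over all genes, FPKM was 1.14 times higher in Voyager, and the median difference of all genes was 0.07. When both genotypes were scaled to the same sum, the median of all genes moved by more than 0.1, to -0.11. The table does not give the reads behind a value, and values are rounded to 2 decimals.

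Of the 88 members, 6 were higher in Voyager by at least 2-fold and 4 were higher in Albion, while 78 lay within 2-fold. Over all genes, 4.31% were past 2-fold, 2.55% higher in Voyager and 1.76% higher in Albion, against 6.82% and 4.55% of the members. All 6 members higher in Voyager were serine carboxypeptidases, and 5 of these carried the S28 annotation. The 4 higher in Albion were SCPL48 (Phvul.005G131000), SCPL31 (Phvul.006G189100) and the subtilases Phvul.002G119700 and Phvul.002G152400. With equal FPKM sums, 6 members were higher in Voyager and 7 in Albion, so the share of the different members that favoured Voyager went from 60% to 46.2%. The same scaling took this share from 59.2% to 44.6% over all genes.

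The median difference was 0.10 over the members, 0.15 over the serine carboxypeptidases and 0.00 over the subtilases, beside 0.07 over all genes. Voyager had the higher value, by any amount, for 30 of 44 serine carboxypeptidases and 22 of 44 subtilases. Over all genes this share was 61.9%, beside 68.2% of the serine carboxypeptidases. Such small differences turned with the scaling. With equal FPKM sums, Voyager was higher for 19 of 44 serine carboxypeptidases and 17 of 44 subtilases, beside 33.4% of all genes, and the medians were -0.02 and -0.14, beside -0.11 over all genes.

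**Figure D1:**
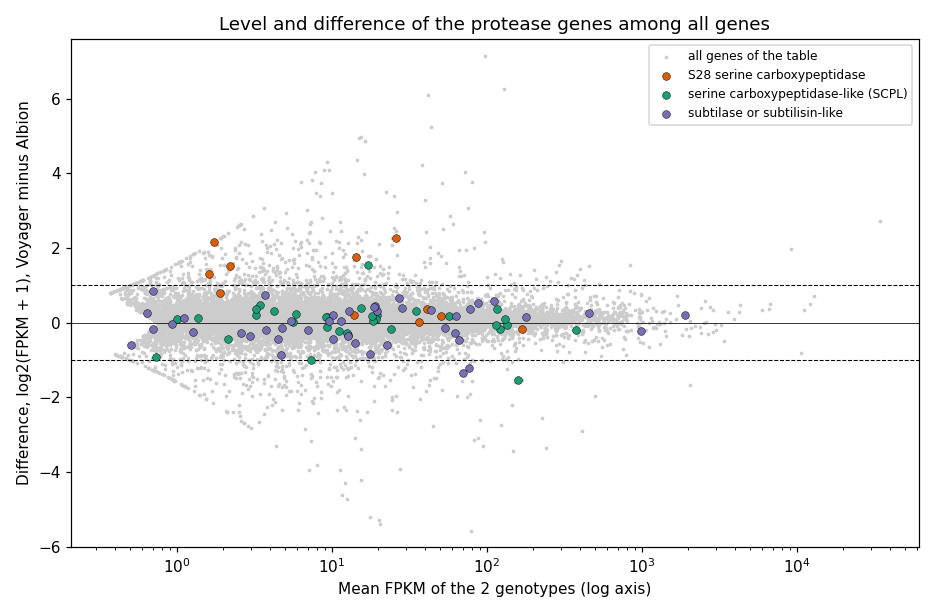
Difference between the genotypes (vertical axis, log2(FPKM + 1), Voyager minus Albion) against the mean FPKM of the genotypes (horizontal log axis). Grey points are the 19598 genes, coloured points are the 88 members and dashed lines mark 2-fold, with 6 members above the upper line and 4 on or below the lower one.

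Members spanned a wide range of levels. Their mean FPKM ran from 0.51 to 1890, with a median of 14.0 beside 11.6 for all genes. A mean of at least 100 FPKM was reached by 13 members (14.8%), against 7.43% of all genes. The members' share of all FPKM was 0.76% (Albion) and 0.67% (Voyager).

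A pair of subtilases held much of this. Phvul.009G018500, annotated as SBT5.2, reached 1754 FPKM in Albion and 2027 in Voyager, which placed its mean at rank 34 of all genes. In Arabidopsis, SBT5.2 cuts the precursors of peptide signals, among them one that limits stomata. Phvul.001G026100 reached 1056 FPKM in Albion and 913 in Voyager, and its annotation is ARA12, the subtilase needed for mucilage release from the Arabidopsis seed coat. These 2 genes gave 44.6% (Albion) and 46.0% (Voyager) of the FPKM of all members. Both lay close to equality, with differences of 0.21 and -0.21.

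The next levels were shared by both families. The subtilisin-like gene Phvul.008G057000 reached 416 FPKM in Albion and 498 in Voyager, while SCPL20 (Phvul.008G053600) had 399 and 349. A further ARA12 gene, Phvul.003G237300, had 170 and 188 FPKM. The S28 gene Phvul.005G129100 had 179 and 159, and the SCPL49 gene Phvul.007G099400 had 139 and 133. SCPL49 is annotated as CPY, for carboxypeptidase Y, the vacuolar enzyme first described in yeast. SCPL29 (Phvul.009G196000) with 128 and 136 FPKM and SCPL51 (Phvul.011G087900) with 129 and 116 completed this range. Only SCPL48, with 237 FPKM in Albion and 81.0 in Voyager, was past 2-fold among the 13 members with a mean of at least 100 FPKM.

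**Figure D2:**
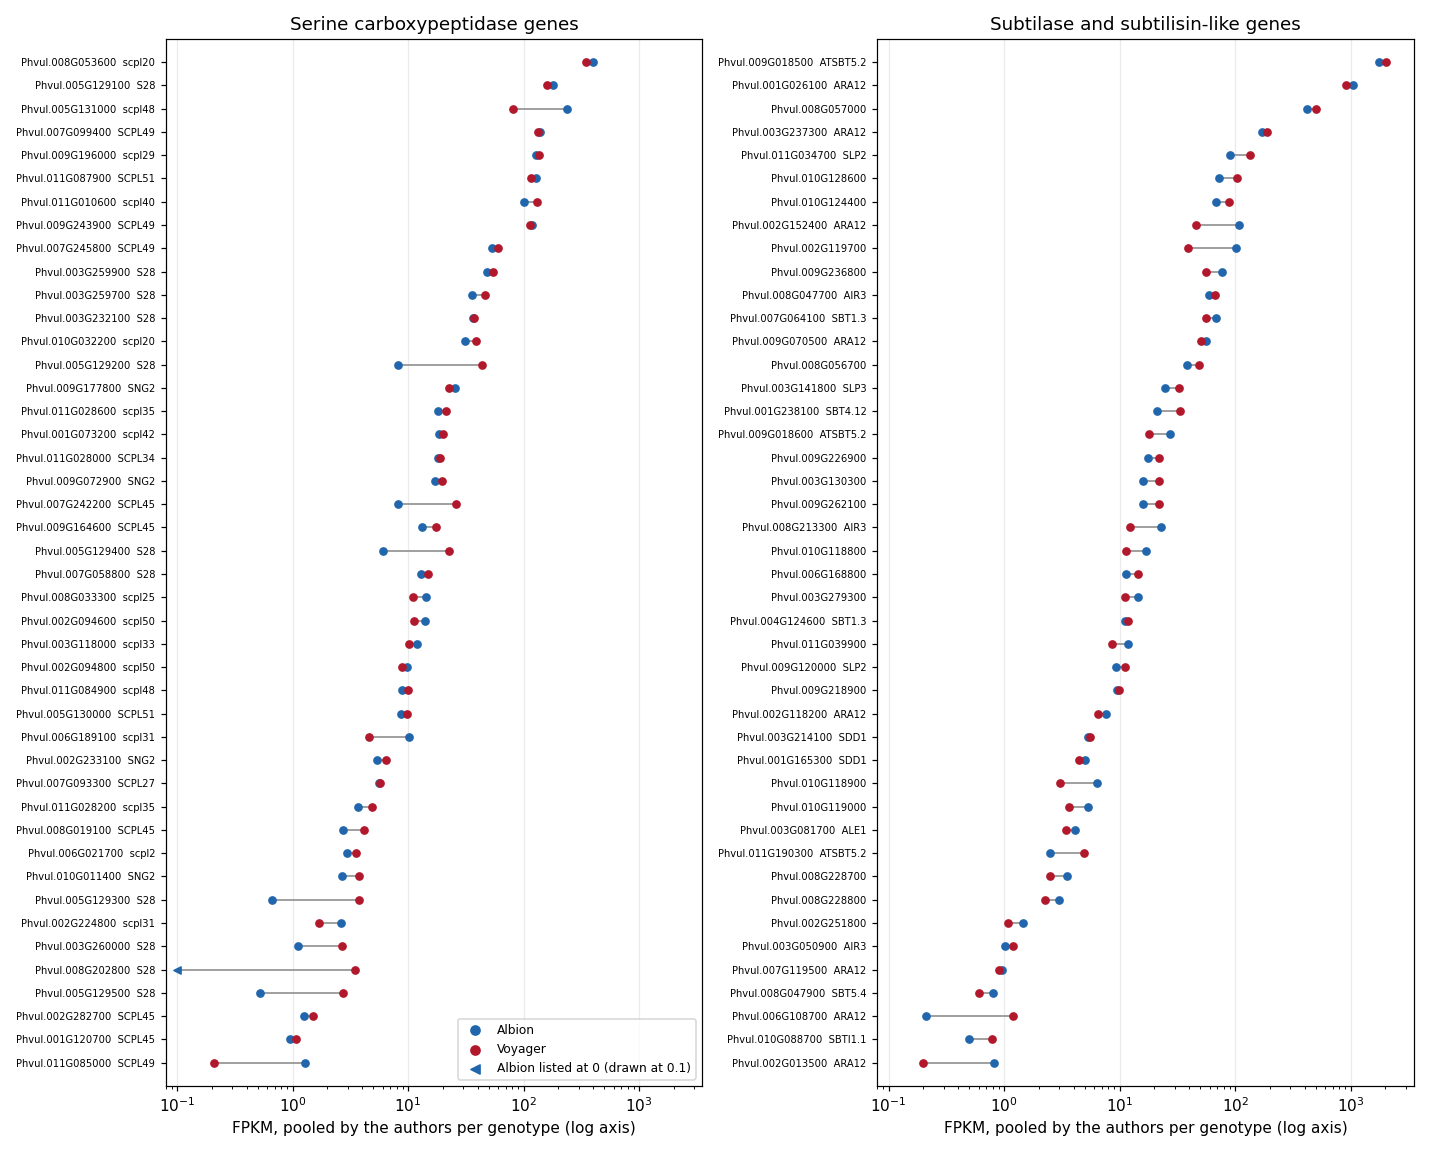
FPKM of each of the 88 members in Albion (blue) and Voyager (red) on a log axis, with serine carboxypeptidases on the left, subtilases on the right and the highest mean at the top. Each point is 1 value pooled over 3 pots, so there are no error bars; long bars between the points mark members such as SCPL48 (237 and 81.0 FPKM) and Phvul.005G129200 (8.24 and 43.7 FPKM).

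The S28 subgroup held 5 of the 6 members past 2-fold towards Voyager. Of its 11 genes, 10 were higher in Voyager (8 with equal FPKM sums), beside 61.9% and 33.4% of all genes. No gene of the subgroup was past 2-fold towards Albion. Its median difference was 0.80, and the 77 members outside it had a median of 0.05, with 1 gene past 2-fold towards Voyager and 4 towards Albion. Summed over the subgroup, FPKM was 329 in Albion and 390 in Voyager, a ratio of 1.19, close to the 1.14 of all genes. Without the 4 S28 genes of chromosome 5 past 2-fold, the other 7 summed to 313 and 318 FPKM, a ratio of 1.01. This sum rests largely on Phvul.005G129100, with 179 and 159 FPKM, the 1 S28 gene lower in Voyager. The 6 S28 genes on other chromosomes summed to 134 FPKM in Albion and 159 in Voyager.

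On chromosome 5, 5 S28 genes lie side by side between 35373302 and 35452609 (v1.0 genome). The first of them, Phvul.005G129100, was by far the highest of the row and differed by -0.17. The second, Phvul.005G129200, had 8.24 FPKM in Albion and 43.7 in Voyager. This was 5.31 times more in Voyager and, at 2.28 on the log2(FPKM + 1) scale, the largest difference of any member on the deposited values. With equal FPKM sums, the S28 gene Phvul.008G202800, listed at 0 in Albion, came first with 2.22 against 2.11. This scaling raised the values of both genotypes and kept the pseudocount at 1, so this gene rose from 2.16. The next genes, Phvul.005G129300 with 0.66 and 3.75 FPKM, Phvul.005G129400 with 6.02 and 22.6, and Phvul.005G129500 with 0.52 and 2.73, followed the same direction, with differences from 1.3 to 1.75. Over these 4 genes, grouped here because they were past 2-fold, the summed level was 15.4 FPKM in Albion and 72.8 in Voyager, a ratio of 4.71.

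A limit is that such neighbouring copies can share reads, and the loci of Phvul.005G129300 and Phvul.005G129400 are short, at 800 and 1001 bp, against a median of 3889 bp for the subgroup. With a mean of at least 5 FPKM required, which kept Phvul.005G129200 and Phvul.005G129400, 3 members in place of 6 were higher in Voyager. That was 4.84% of 62 members, beside 1.87% of all genes with such a mean.

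The surroundings of this row were also examined, a choice made after its values had been seen. From 100 kb before the row to 100 kb behind SCPL48, 30 genes were listed, 7 of them members. On the log2(FPKM + 1) scale, none of the other 23 genes was past 2-fold in either direction, and their median difference was -0.04. The largest was -0.88, for Phvul.005G131100 with 5.18 and 2.35 FPKM, which are more than 2-fold apart without the pseudocount. Directly before the row, an aspartyl protease gene (Phvul.005G129000) had 5.69 and 5.74 FPKM. Directly behind it, a Ca2+-binding protein gene (Phvul.005G129600) had 2.97 and 3.85. SCPL51 (Phvul.005G130000), the next member, had 8.64 and 9.70 FPKM.

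SCPL48 lies 116 kb further on, from 35645750 to 35650318, and was higher in Albion. Its level there was 2.93 times that of Voyager, and its difference of -1.54 was the largest towards Albion of any member on the log2(FPKM + 1) scale. With a pseudocount of 0.1, the low members Phvul.011G085000 (-2.14) and Phvul.002G013500 (-1.62) went past it (-1.55). The region therefore held members with large differences in opposite directions. SCPL48 was also the 1 member whose locus is shared with another listed gene, the unannotated Phvul.005G131100, which had 5.18 FPKM in Albion and 2.35 in Voyager. Reads could be split between these genes.

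**Figure D3:**
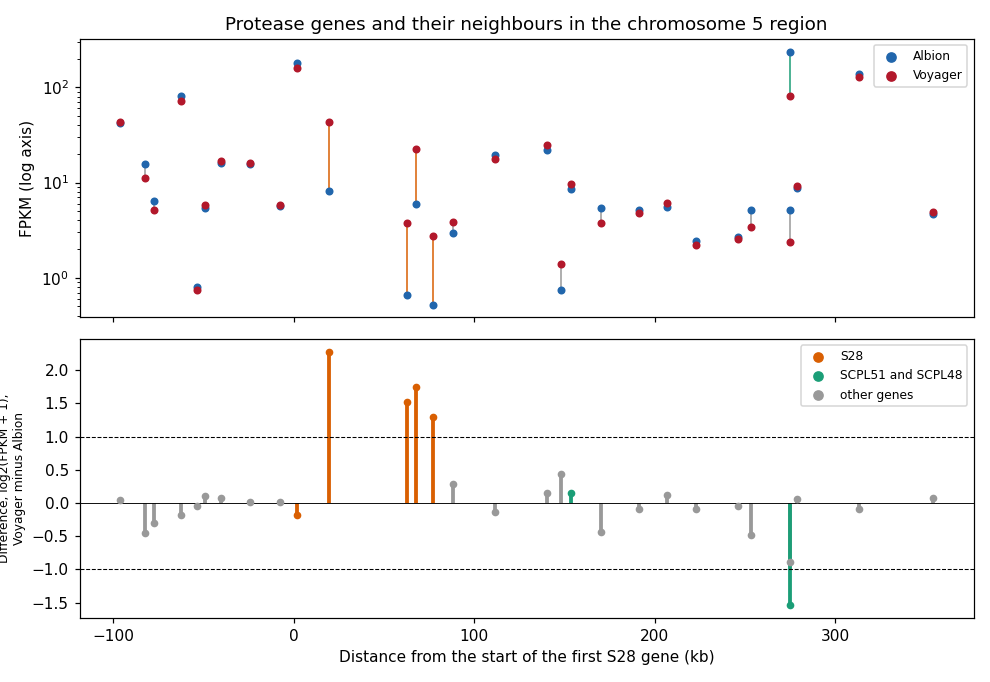
FPKM in each genotype (upper panel, log axis) and difference on the log2(FPKM + 1) scale (lower panel) for the 30 genes listed around the S28 row, by distance in kb from the start of its first gene. Orange marks S28 genes, green SCPL51 and SCPL48 and grey the other 23 genes, which all lie between the dashed 2-fold lines.

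The remaining 6 S28 genes lie on chromosomes 3, 7 and 8. Voyager had the higher value for each of them, or for 4 with equal FPKM sums, beside 61.9% and 33.4% of all genes. Phvul.008G202800 was listed at 0 in Albion and at 3.48 FPKM in Voyager, the 1 member at 0 in a genotype, and no fold is given for it. On chromosome 3, Phvul.003G259700 had 35.7 and 46.4 FPKM, Phvul.003G259900 had 47.8 and 54.0, and Phvul.003G260000 had 1.11 and 2.67. As on chromosome 5, high and low copies stood next to each other there, but the differences were smaller, from 0.17 to 0.80. Phvul.003G232100 (36.3 and 37.1 FPKM) and Phvul.007G058800 (12.9 and 15.0) differed by 0.03 and 0.20.

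Among the 33 numbered SCPL genes, 1 was past 2-fold towards Voyager and 2 towards Albion. The one towards Voyager was SCPL45 (Phvul.007G242200), with 8.19 FPKM in Albion and 26.1 in Voyager, a ratio of 3.18. The other 4 genes annotated as SCPL45 were also higher in Voyager, by 0.09 to 0.47, and 3 of them with equal FPKM sums. Over all genes these shares were 61.9% and 33.4%. The 4 SCPL45 genes were Phvul.009G164600 (13.2 and 17.5 FPKM), Phvul.008G019100 (2.71 and 4.15), Phvul.002G282700 (1.26 and 1.49) and Phvul.001G120700 (0.94 and 1.07). Summed over the 5 genes, the level was 26.3 FPKM in Albion and 50.3 in Voyager.

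SCPL31 pointed to Albion in both of its copies. Phvul.006G189100 had 10.1 FPKM in Albion against 4.54 in Voyager, and its difference of -1.0 lay exactly at the threshold. Phvul.002G224800 had 2.63 and 1.68 FPKM. The members just outside the threshold were the SCPL49 gene Phvul.011G085000, at -0.91 with 1.27 and 0.21 FPKM, and the subtilisin-like Phvul.010G118900, at -0.87 with 6.39 and 3.03 FPKM. Towards Voyager the nearest was the ARA12 gene Phvul.006G108700, at 0.86 with 0.21 and 1.19 FPKM.

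The same annotation did not give the same value. The second SCPL48 gene, Phvul.011G084900 on chromosome 11, had 8.80 FPKM in Albion and 9.92 in Voyager, far below the level of the copy on chromosome 5 and without its difference. It lies next to the low SCPL49 gene named above. The other SCPL49 genes were much higher, with 118 and 113 FPKM for Phvul.009G243900 and 53.6 and 60.5 for Phvul.007G245800. The 4 SCPL49 genes summed to 312 FPKM in Albion and 306 in Voyager.

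The acyltransferase annotation SCPL19, or SNG2, was carried by 4 genes with levels from 2.68 to 25.5 FPKM in Albion and from 3.77 to 22.7 in Voyager. The highest, Phvul.009G177800, had 25.5 and 22.7 FPKM, and Phvul.009G072900 had 17.1 and 19.5. Phvul.002G233100 had 5.36 and 6.48 FPKM and Phvul.010G011400 had 2.68 and 3.77, and no SNG2 gene was past 2-fold. The glucosyltransferases UGT84B1, from a family that includes enzymes supplying glucose esters, were low, with 2.90 and 3.95 FPKM for Phvul.007G039600 and 0.75 and 1.21 for Phvul.007G039400.

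The 16 SCPL genes with other numbers stayed between -0.33 and 0.37. SCPL25 (Phvul.008G033300) had the lowest difference, with 14.2 and 11.1 FPKM, and SCPL40 (Phvul.011G010600) the highest, with 101 and 131 FPKM. The SCPL34 and SCPL35 genes of chromosome 11, which lie within 108 kb, were all slightly higher in Voyager, or 2 of the 3 with equal FPKM sums. They had 18.3 and 18.8 FPKM (Phvul.011G028000), 3.68 and 4.82 (Phvul.011G028200) and 18.3 and 21.2 (Phvul.011G028600). The SCPL50 pair of chromosome 2, with 13.9 and 11.3 FPKM for Phvul.002G094600 and 9.81 and 8.92 for Phvul.002G094800, was slightly higher in Albion.

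**Figure D4:**
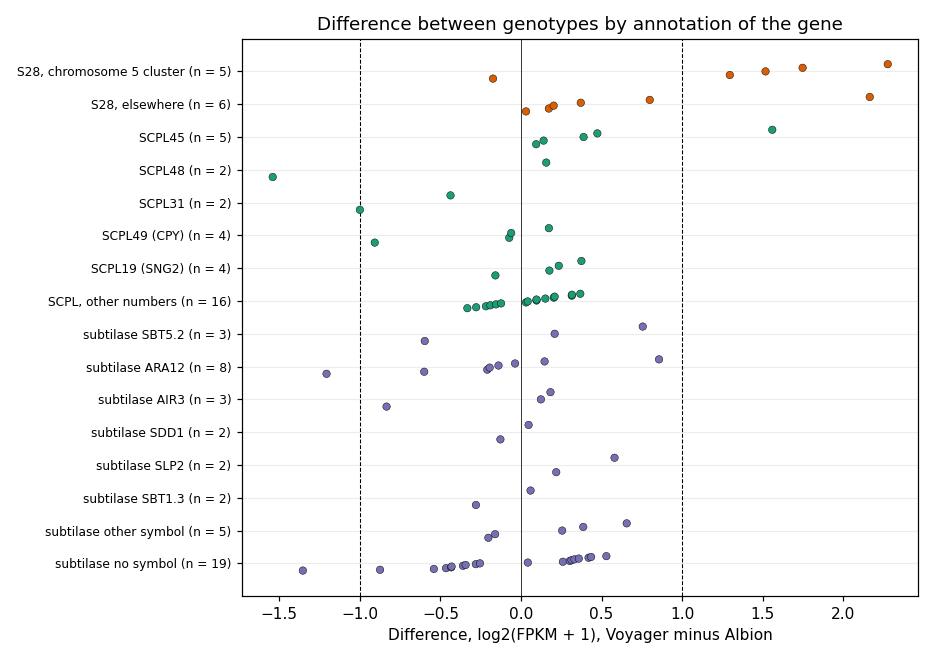
Difference between the genotypes (log2(FPKM + 1), Voyager minus Albion) of each of the 88 members, 1 point per gene, in rows by annotation, with dashed lines at 2-fold. The chromosome 5 row of S28 genes holds 4 points past the 2-fold line, the 5 SCPL45 genes lie on the Voyager side of 0, and no subtilase lies beyond 2-fold towards Voyager.

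Of the 44 subtilases, 42 lay within 2-fold, and the differences ranged from -1.35 to 0.86. Both genes past 2-fold were higher in Albion and lie on chromosome 2. Phvul.002G119700, a subtilase family gene without a symbol, had 101 FPKM in Albion and 39.1 in Voyager, a ratio of 2.60. Phvul.002G152400, annotated as ARA12, had 108 and 46.0 FPKM, a ratio of 2.34. With equal FPKM sums these genes kept their direction, and the AIR3 gene Phvul.008G213300 and the short Phvul.010G118900 joined them past 2-fold. With a pseudocount of 0.1, the ARA12 gene Phvul.006G108700 passed 2-fold towards Voyager, and Phvul.010G118900 and the ARA12 gene Phvul.002G013500 passed it towards Albion.

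ARA12 was the most frequent subtilase symbol, with 8 genes. Their levels ran from 0.21 to 1056 FPKM in Albion and from 0.20 to 913 in Voyager, and 6 of the 8 were higher in Albion (7 with equal FPKM sums). Over all genes, Voyager was higher for 61.9%, but for only 33.4% with equal FPKM sums. Besides the genes named above, Phvul.009G070500 had 56.3 and 51.0 FPKM and Phvul.002G118200 had 7.55 and 6.47. Phvul.007G119500 had 0.96 and 0.91 FPKM and Phvul.002G013500 had 0.82 and 0.20. The sum over the 8 genes was 1399 FPKM in Albion and 1207 in Voyager, mostly from 1 gene.

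The genes annotated as SBT5.2 differed in level more than any other set with a shared subtilase symbol except ARA12. Next to the highest member, Phvul.009G018600 had only 27.6 FPKM in Albion, 17.9 in Voyager, and it pointed to Albion with -0.60. Phvul.011G190300 had 2.49 and 4.89 FPKM and pointed to Voyager with 0.76. SBT4.12 (Phvul.001G238100), whose Arabidopsis relative cuts the precursor of the abscission peptide IDA together with SBT5.2, had 20.9 and 33.4 FPKM.

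AIR3, a subtilase linked to the emergence of lateral roots in Arabidopsis, was the symbol of 3 genes. Phvul.008G047700 had 59.4 and 67.5 FPKM, Phvul.003G050900 had 1.02 and 1.2, and Phvul.008G213300 had 22.9 in Albion and 12.4 in Voyager. SDD1, which limits stomatal density in Arabidopsis, was low and even, with 5.0 and 4.49 FPKM for Phvul.001G165300 and 5.37 and 5.58 for Phvul.003G214100. ALE1 (Phvul.003G081700), needed for the embryo cuticle in Arabidopsis, had 4.11 and 3.44 FPKM. Its annotation names a PA domain, and the other gene annotated in these words, Phvul.009G236800, had 77.2 and 55.6 FPKM. No search for domains was run.

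Both genes annotated as SLP2 were higher in Voyager, with 89.5 and 134 FPKM for Phvul.011G034700 and 9.35 and 11.0 for Phvul.009G120000. SLP3 (Phvul.003G141800) had 24.6 and 32.4 FPKM. SBT1.3 was even or slightly higher in Albion, with 68.5 and 56.2 FPKM for Phvul.007G064100 and 11.2 and 11.7 for Phvul.004G124600. SBT5.4 (Phvul.008G047900) had 0.80 and 0.61 FPKM. SBT1.1 (Phvul.010G088700), whose Medicago relative is active in the endosperm and linked to seed size, had 0.50 and 0.79 FPKM, among the lowest of all members.

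The 19 subtilases without a symbol split into 9 higher in Voyager and 10 higher in Albion. Their median difference was -0.25, beside 0.05 for the 25 with a symbol. This median is the value of a single low gene, Phvul.002G251800 (1.47 and 1.07 FPKM). The next value in order was 0.04 (Phvul.009G218900), so the contrast rests on the place of that gene. On chromosome 10, Phvul.010G128600 had 71.9 and 104 FPKM and Phvul.010G124400 had 68.5 and 88.0. Another group of the same chromosome was lower in Voyager in all 3 genes, with 16.9 and 11.3 FPKM for Phvul.010G118800, 6.39 and 3.03 for Phvul.010G118900 and 5.31 and 3.68 for Phvul.010G119000. The middle one has a locus of only 460 bp, the shortest of any member. The subtilisin-like pair of chromosome 8, Phvul.008G056700 with 38.7 and 48.9 FPKM and Phvul.008G057000, pointed to Voyager in both genes.

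Members were found on all 11 chromosomes, from 1 on chromosome 4 to 13 on chromosome 9. With at most 100 kb between neighbours, 27 members lay in 10 groups, and 4 groups held 3 or more genes. In 6 of the 10 groups all genes, on the deposited scale, pointed the same way, and the differences past 2-fold within the groups were all in the chromosome 5 row.

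Other proteases and their partners were described from word lists of the annotation that exclude the members. Of 35 cysteine proteases, 1 was past 2-fold towards Voyager and 1 towards Albion, and the latter was Phvul.009G170800 with 791 and 203 FPKM. The highest, the papain gene Phvul.001G009900, had 758 and 672 FPKM. Of 69 aspartic proteases, 2 were higher in Voyager and 6 in Albion. Their highest genes were Phvul.006G093600 (630 and 478 FPKM) and Phvul.005G025900 (511 and 576). The largest differences there were those of Phvul.002G037200 (8.38 and 1.84 FPKM) and Phvul.011G208600 (0.70 and 4.54). None of 57 other carboxypeptidases and serine-type peptidases was past 2-fold, and their median difference was 0.10.

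Of the 19 genes in a list of serine protease inhibitors, 5 (26.3%) were higher in Voyager by at least 2-fold and 1 was higher in Albion. Whether any of these inhibitors acts on the members was not tested. Their median difference was 0.38, and their summed level was 425 FPKM in Albion and 621 in Voyager. Kunitz inhibitors made up 12 of them, 4 higher in Voyager and 1 in Albion. Phvul.004G129600 had 39.1 and 94.2 FPKM, Phvul.004G137600 had 19.6 and 66.8, and Phvul.004G138500 had 0.83 and 6.69. The neighbour of the first, Phvul.004G129500, was the 1 higher in Albion, with 29.0 and 8.31 FPKM. Neighbouring Kunitz genes can share reads. The highest inhibitor was the proteinase inhibitor propeptide gene Phvul.007G245700, at 200 FPKM (Albion) and 257 FPKM (Voyager). This domain is the one that acts as the propeptide of subtilases, and the gene lies directly before the SCPL49 gene Phvul.007G245800.

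Annotation words for families that hold known substrates of subtilases in Arabidopsis gave a further list of 51 genes, with 3 past 2-fold towards Voyager and 4 towards Albion. The words also took in Phvul.007G247600, annotated as basic region/leucine zipper motif 60, with 29.12 and 26.85 FPKM. Whether any listed product is cut by the members was not tested. Phytosulfokine precursors, which release a growth peptide, had no gene past 2-fold among 5, and the highest, Phvul.007G223100, had 213 and 233 FPKM. RALF precursors, which release peptides that raise the pH of the cell wall, had 1 of 7, towards Albion. Pectin methylesterases and the inhibitors annotated with them had 3 of 34 towards Voyager and 1 towards Albion. They included Phvul.010G123100 (169 and 217 FPKM) and Phvul.011G005200 (22.2 and 79.0). All 4 IDA-like genes were lower in Voyager and low in both genotypes. IDL5 (Phvul.007G078400) had 2.80 FPKM in Albion and was listed at 0 in Voyager. The others, named after their values were seen, had 2.12 and 0.00 FPKM (Phvul.003G025100), 3.21 and 1.52 (Phvul.009G148100) and 0.83 and 0.71 (Phvul.002G270200).

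**Figure D5:**
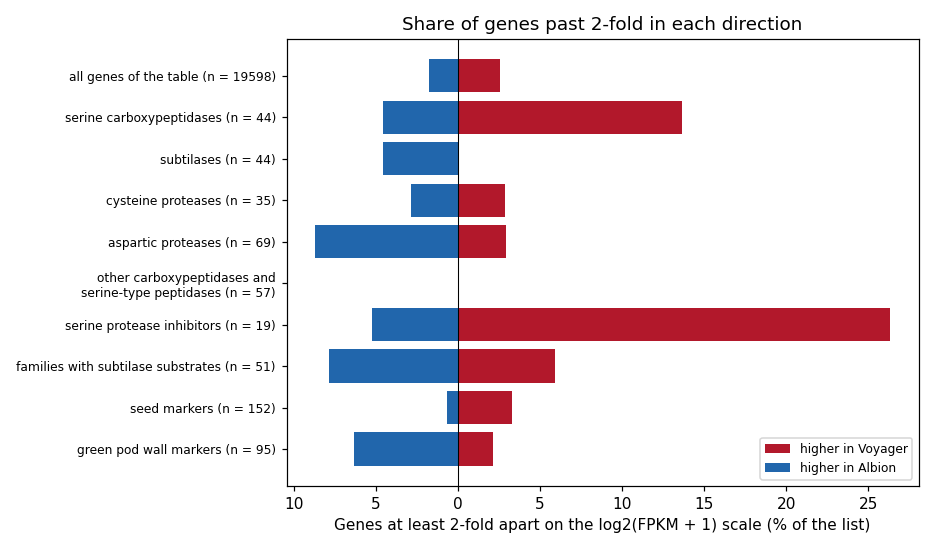
Percent of the genes of each list that were at least 2-fold apart on the log2(FPKM + 1) scale, with Voyager to the right in red, Albion to the left in blue and the number of genes in brackets. All genes stand at 2.55% and 1.76%, serine carboxypeptidases at 13.6% and 4.55%, subtilases at 0 and 4.55% and serine protease inhibitors at 26.3% and 5.26%.

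Lists of genes for the tissues of a pod were read beside these results. The 152 seed genes (cupins, oleosins, late embryogenesis and 2S albumin type proteins) had 5 genes past 2-fold towards Voyager, 1 towards Albion and a median difference of 0.11, with 2 genes listed at 0 in Albion and 1 in Voyager. Their share of all FPKM was 3.16% (Albion) and 3.00% (Voyager). The 95 photosynthesis genes, which are active in the green pod wall, had 2 towards Voyager, 6 towards Albion and a median of -0.04. Their share was 3.08% in Albion and 2.49% in Voyager. The words of the seed list also take in lipid transfer proteins, such as Phvul.009G211200 with 35.5 and 161 FPKM. The part of tissue makeup in the protease differences was not tested.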

How the data were processed

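Pod RNA of 3 pots per genotype was sequenced, and the authors filtered the reads, aligned them with TopHat 1.4.1 (index of Bowtie 0.12.7) to the P. vulgaris v1.0 genome and estimated FPKM with Cufflinks 1.3.0. Cuffdiff then pooled the replicates, so the table the authors deposited and that was used here gives 1 FPKM value per gene and genotype, with no depth of single samples and no error of a value. The alignments were not used here. Its columns of fold changes, test statistics, p-values, q-values and calls hold the authors' own comparison and were not used here. Every listed gene has the status OK, given to genes with enough alignments for a test, and members outside this table were not analysed here.

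Computations used Python 3.11, numpy 2.4.6, pandas 2.3.3 and matplotlib 3.10.9, and the counting and grouping functions were tested on simulated data. The pseudocount was 1, the threshold 2-fold, and no filter on low values was applied. No test was run, since there are no replicate values. Alternatives were a pseudocount of 0.1, means of at least 1 or 5 FPKM, equal FPKM sums, centring on the median of all genes, thresholds of 1.5-fold and 3-fold, leaving out overlapping loci, and 50 or 200 kb between neighbours. Named genes were the 10 members with the highest mean, those past 2-fold or listed at 0, and members of groups of 3 or more. Also named were many, but not all, of the members annotated as a particular Arabidopsis protein. The same holds for the 2 highest and 2 most different genes of each list. Other members and neighbours were named after their values were seen. The members and lists were chosen with earlier results of these data known.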

Additional observations from a re-analysis of the deposited data

How the results depend on the processing

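No paired analysis was possible because the columns carry 1 pooled value per genotype, and for the same reason no replicate could be left out. A pseudocount of 0.1 gave 7 members higher in Albion, and 1 subtilase higher in Voyager and 4 in Albion. A mean of at least 5 FPKM left 3 members higher in Voyager, all 3 of them serine carboxypeptidases. With equal FPKM sums, 7 members and 4 subtilases were higher in Albion, and the median difference was -0.0679 for the members and -0.0179 for the serine carboxypeptidases. A threshold of 1.5-fold gave 10 members higher in Voyager and 9 in Albion, with 3 and 6 for the subtilases. At 3-fold, 3 members were higher in Voyager, all 3 of them serine carboxypeptidases, and 0 members, 0 serine carboxypeptidases and 0 subtilases were higher in Albion. Without overlapping loci, which removes SCPL48, 1 serine carboxypeptidase was higher in Albion. The other 55 comparisons of a main count or median with an alternative stayed within 1.5 times the count or within an order-statistic interval of the median over the genes. Some of these could not have moved, so their number does not measure stability. A median does not depend on the fold threshold, and no subtilase shares a locus with another listed gene. The count of 0 subtilases towards Voyager cannot rise under a filter on the mean or at 3-fold. The 10 members past 2-fold and the 10 with the highest mean stayed on their side of 2-fold with a pseudocount of 0.1 and with equal FPKM sums, but their values moved. With a pseudocount of 0.1, Phvul.008G202800 went to 5.16, Phvul.005G129500 to 2.19 and Phvul.005G129300 to 2.34. With equal FPKM sums, Phvul.009G196000 (-0.10) and Phvul.003G237300 (-0.05) changed sign within 2-fold. Over all 19598 genes, 500 (2.55%) were higher in Voyager and 345 (1.76%) in Albion, beside 6.82% and 4.55% of the members. With a pseudocount of 0.1 it was 882 and 573 (4.50% and 2.92%, beside 9.09% and 7.95% of the members). At 1.5-fold it was 1363 and 833 (6.95% and 4.25%, beside 11.4% and 10.2%). At 3-fold it was 186 and 129 (0.95% and 0.66%, beside 3.41% and 0%). A mean of at least 5 FPKM left 13884 genes, with 260 and 173 different (1.87% and 1.25%, beside 4.84% and 6.45% of 62 members). With equal FPKM sums the shares were 2.06% and 2.56%, beside 6.82% and 7.95% of the members. With no counts in the table, low FPKM values are the least certain.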

Other observations

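Over all genes, differences past 2-fold were not evenly spread over levels. Of the 6 members with a mean under 1 FPKM, 0 were past 2-fold on the log2(FPKM + 1) scale, against 8.29% of all genes at that level. With so few members, 0 is close to that share, and it depends on the pseudocount. With a pseudocount of 0.1, Phvul.011G085000 (-2.14), Phvul.006G108700 (2.06) and Phvul.002G013500 (-1.62) were past 2-fold. On the log2(FPKM + 1) scale, 4 of 29 members between 1 and 10 FPKM were past 2-fold (13.8%, beside 5.80% of all genes). Between 10 and 100 FPKM it was 5 of 40 (12.5%, beside 2.75%). At 100 FPKM and more it was 1 of 13, or 7.69%, beside 3.09%.

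A locus under 1500 bp was found for 5 of the 88 members, against a median of 3924 bp over all members. The numbered SCPL genes had the longest loci, with a median of 4688 bp and up to 15706 bp, and the subtilases had a median of 3024 bp.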
